A study of Mus musculus with 6 samples.

Results

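Transcripts of glucose uptake, glycolysis, lactate handling and pyruvate entry into mitochondria were followed in mouse immature dendritic cells exposed to hydrogen peroxide (H2O2). The genes were 33, taken from a list by symbol and covering each step from the glucose transporters to the pyruvate dehydrogenase complex. All 33 had a row among the 17567 genes of the deposited files, and all 33 passed the filter on low counts. The H2O2 group received 100 µM H2O2 for 24 h after enrichment on CD11c beads, and the control group carried the label control with no agent named. Cells of both groups were grown from the marrow of male C57BL/6 mice aged 6 weeks, in medium with 10% FBS, rmGM-CSF at 20 ng/mL and rmIL-4 at 10 ng/mL, and were taken on day 6. Whether replicates stand for separate mice or separate cultures is not given, so every p-value here refers to the scatter of these libraries, some of which may be technical.

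Glycolysis splits glucose into pyruvate in the cytosol and yields ATP without oxygen. Glucose enters through facilitative transporters, is trapped by hexokinase and is committed by phosphofructokinase. Pyruvate then leaves as lactate or enters mitochondria through the pyruvate dehydrogenase complex, which pyruvate dehydrogenase kinases hold back. Dendritic cells are known to raise glycolytic flux when they are activated. Several steps have isoforms encoded by separate genes, and these are set side by side here.

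The files held 6 samples but 5 distinct libraries, because H2O2 replicate 3 repeated the values of H2O2 replicate 1 and was counted once. Both files name replicate 1 in the column header, and the values are given under that number here, although which sample they belong to is not otherwise settled. Depth was nearly equal, with totals between 16232604 and 16672491 estimated counts. Y-linked transcripts parted the 5 libraries into 2 sets, although all mice were labelled male: Ddx3y, Eif2s3y, Kdm5d and Uty summed to 96.4 CPM (counts scaled to a common library size) in H2O2 replicate 1 and 106 CPM in control replicate 1, and to at most 0.427 CPM in the other 3. H2O2 replicate 1 and control replicate 1 are called set A, and H2O2 replicate 2 and control replicates 2 and 3 set B. H2O2 was therefore compared with control inside the sets, by edgeR's quasi-likelihood test with a term for the set. The 8 dendritic cell markers summed to 6929.6 and 7832 CPM in H2O2 and to between 8539 and 9119 CPM in control libraries. None was at 0 in any library. H2-Ab1, H2-Aa, Cd74, Flt3 and Zbtb46 fell (5 of 8, beside 4.61% of all genes tested). Itgax, which encodes CD11c, was not called (log2 0.060, adjusted p = 0.649 by edgeR), nor were Mgl2 and Ccr7. In bulk RNA, fewer cells of a type and less RNA per cell cannot be told apart.

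With the set term, 7 of the 33 genes rose under H2O2 and 1 fell, when p-values were adjusted by Benjamini-Hochberg over all genes and called at 0.05 or below. The 7 were the glucose transporter gene Slc2a1, the hexokinase gene Hk3, the phosphofructokinase gene Pfkl, and Tpi1, Pgam1, Eno1 and Pkm of the lower pathway, and the 1 that fell was a second transporter gene, Slc2a3. Their share was 21.2% higher and 3.03% lower, against a background of 3.93% higher and 4.61% lower (8.54% in all) among the 12209 genes tested. That background was not matched for expression level, and the 7 that rose had means between 65.4 CPM (Pfkl) and 1027 CPM (Pkm). The increases were small, between 1.22-fold and 1.39-fold, and none of the 33 genes was called with a log2 change of 1 or more (0.573% of all genes rose and 1.6% fell by that much). The log2 value was above 0 in 23 of the 33 and below 0 in 10, against a background of 51.6% above and 48.4% below. Its median over the 33 was 0.12 in the fit, 0.23 from set A alone and 0.10 from set B alone, beside 0.0089 in the fit over all genes tested. The levels of the 33 summed to 10089 and 11653 CPM in H2O2, against 8596, 10245 and 10256 CPM in control libraries, so that each H2O2 library exceeded the controls of its set, and the set A one stayed below the controls of set B. In 6 of the 33 genes both H2O2 libraries lay above every control library, and in 1 they lay below, against a background of 13.0% above and 10.7% below. Without the set term the same test called none of the 33 (0.0% of all genes), with 2 higher at an unadjusted p under 0.05, Pkm and Pfkfb2, and none lower, against a background of 3.79% higher and 3.19% lower. With the set term kept, DESeq2 called 5 higher, all of the 7 but Slc2a1 and Tpi1, and 1 lower, and limma-voom 7 and 1. Without the filter on low counts edgeR called 1 higher, Pkm, and 0 lower. Leaving out H2O2 replicate 2 or control replicate 3 left 0 of the 8 calls, and leaving out control replicate 2 left 2 higher, Hk3 and Pkm, and 1 lower.

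**Figure D1:**
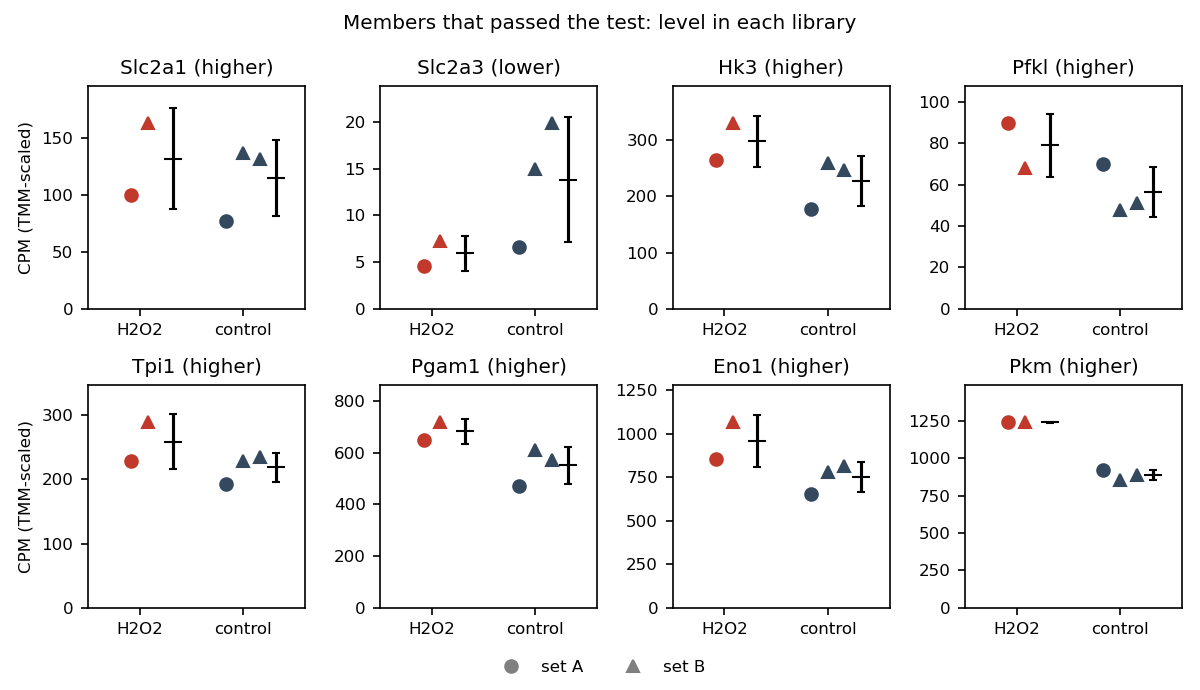
Level of the 8 genes that passed the test, in TMM-scaled CPM on a linear axis from 0, one point per library (circles set A, triangles set B), with mean and SD of each group beside the points. Hk3, Pgam1, Eno1 and Pkm lie higher in both H2O2 libraries than in every control library, while Slc2a1, Pfkl, Tpi1 and Slc2a3 overlap between groups and separate only within each set.

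Promoters are shown for 3 genes that rose, with and without a hypoxia response core, and for Pgk1, which holds the core but did not pass the test, to let the sequences be read beside the values. Each is the stretch of 250 bases before a start that RefSeq lists for the gene (build GRCm38.p6), written 5′ to 3′ on the gene's strand. Capitals mark the core ACGTG or GCGTG of the hypoxia response element on either strand. Where CACGTG occurs the core is read on both strands and the matches overlap. The windows are chr4:119108495-119108744 on the plus strand, chr13:55021386-55021635 on the minus strand, chr9:59656326-59656575 on the plus strand and chrX:106186850-106187099 on the plus strand.
Slc2a1: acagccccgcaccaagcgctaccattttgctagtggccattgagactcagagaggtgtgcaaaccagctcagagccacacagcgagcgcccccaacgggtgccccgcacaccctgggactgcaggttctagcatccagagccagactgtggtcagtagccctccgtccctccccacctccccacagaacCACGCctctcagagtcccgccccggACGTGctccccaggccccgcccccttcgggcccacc
Hk3: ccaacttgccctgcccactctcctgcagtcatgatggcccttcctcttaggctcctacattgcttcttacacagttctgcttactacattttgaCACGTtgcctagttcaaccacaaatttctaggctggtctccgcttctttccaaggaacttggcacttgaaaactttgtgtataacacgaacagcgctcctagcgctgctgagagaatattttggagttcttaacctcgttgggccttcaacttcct
Pkm: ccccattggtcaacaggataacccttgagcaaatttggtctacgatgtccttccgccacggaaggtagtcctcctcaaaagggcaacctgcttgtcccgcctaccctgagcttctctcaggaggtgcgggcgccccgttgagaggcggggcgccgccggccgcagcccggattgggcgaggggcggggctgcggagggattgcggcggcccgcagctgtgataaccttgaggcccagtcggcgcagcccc
Pgk1: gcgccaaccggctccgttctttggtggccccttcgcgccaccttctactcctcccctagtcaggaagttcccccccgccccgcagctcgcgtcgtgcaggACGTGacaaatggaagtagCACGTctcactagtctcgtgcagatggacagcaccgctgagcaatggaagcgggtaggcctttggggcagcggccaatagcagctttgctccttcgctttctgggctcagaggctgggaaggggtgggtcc
Promoters were matched for 32 of the 33 genes, all but Slc2a3. The start used was not always the outermost of the gene, and the windows of Ldha, Eno3 and Pfkfb2 lay inside the gene. For Ldha, Eno3 and Pgam1 the bases after the start were not found in a GENCODE M21 transcript of the gene. A core stood in 25 of the 32 windows (78.1%), and in 5 of the 7 genes that rose. It stood in 38.6% of the promoters of 27025 RefSeq genes cut the same way. Those genes were not limited to the 12209 tested here, whereas all 33 were tested, so the shares of all promoters are not matched for expression. The GC box GGGCGG, searched on both strands, stood in 19 windows (59.4%), against 32.9% of all. The antioxidant response core TGACNNNGC, also on both strands, stood in 1 window (3.12%), that of Slc16a1, against 10.1% of all. A match describes letters and not binding.

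The glucose transporter genes moved in different directions. Slc2a1 encodes GLUT1, the widespread basal transporter, Slc2a3 the high-affinity GLUT3, and Slc2a6 the lysosomal GLUT6. Slc2a1 stood at 100.3 and 163 CPM in H2O2 replicates 1 and 2, against 76.8, 137 and 132 CPM in control replicates 1, 2 and 3. The groups overlapped, but each H2O2 library was above the control libraries of its own set. The rise was 1.25-fold (log2 0.33 ± 0.069 SE, adjusted p = 0.038 by edgeR). Slc2a1 was not called by DESeq2 (adjusted p = 0.0544), with scaling by library totals alone (0.0656 by edgeR) or without control replicate 2 (0.0866 by edgeR). Slc2a3 was scarce, at 4.61 and 7.25 CPM in H2O2, against 6.63, 14.9 and 19.9 CPM in control libraries. It fell 1.97-fold (log2 -0.98 ± 0.224, adjusted p = 0.0455), the log2 change being -0.52 inside set A and -1.26 inside set B. The lowest control library, of set A, lay below the H2O2 library of set B, and both groups spread widely. Markers of mast cells and basophils took a similar order. The 6 markers summed to 4.55 and 14.8 CPM in H2O2, against 17.7, 47.1 and 73.2 CPM in control libraries, with none at 0. Of the 6, 5 fell, beside 4.61% of all genes tested. The 8 neutrophil markers summed to 119 and 582 CPM in H2O2, against 122, 360.0 and 603 CPM in control libraries. Ly6g was at 0 in control replicate 1. Of 7 tested, 2 fell, Mpo and Cxcr2, and none rose. The log2 value was above 0 in 4 of the 7 and below 0 in 3. The part of these markers in the Slc2a3 result was not tested. Slc2a6 did not pass (98.0 and 52.5 CPM in H2O2, 113, 56.8 and 62.2 CPM in control; log2 -0.19 ± 0.075, adjusted p = 0.151).

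Among hexokinases, which phosphorylate glucose on entry, Hk3 stood out by level and by change. Hk3 encodes an isoform found in myeloid cells, Hk1 the housekeeping isoform and Hk2 an inducible one. Hk3 stood at 265 and 330.4 CPM in H2O2, against 177, 259 and 247 CPM in control libraries. Both H2O2 libraries were above every control library, the set A one by a narrow margin over control replicate 2. Hk3 rose 1.39-fold (log2 0.47 ± 0.076, adjusted p = 0.0238), by 0.59 in set A and 0.39 in set B. Per kilobase of transcript, Hk3 made up 60.5% and 58.2% of the hexokinase level in H2O2, against 51.7%, 52.0% and 51.1% in control libraries. Hk2 stood at 124 and 174 CPM in H2O2, against 99.3, 156 and 150.2 CPM in control libraries (log2 0.24 ± 0.071, adjusted p = 0.0819). Hk1 stood at 120.2 and 162 CPM in H2O2, against 128, 177 and 177 CPM in control libraries (log2 -0.11 ± 0.065, adjusted p = 0.318). Neither passed the test. The Hk1 share was 22.9% and 23.9% in H2O2, against 31.3%, 29.7% and 30.7% in control libraries. Hk1 exceeded Hk2 with the length of the principal transcript and fell below it with the length of all exons joined, so their order is not fixed.

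Gpi1, which turns glucose 6-phosphate into fructose 6-phosphate, did not pass the test. It stood at 519 and 583 CPM in H2O2, against 499, 516 and 523 CPM in control libraries (log2 0.12 ± 0.067, adjusted p = 0.292), and the groups overlapped by a narrow margin.

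Phosphofructokinase 1 commits sugar to glycolysis, and its subunits come from Pfkl (liver type), Pfkp (platelet type) and Pfkm (muscle type). Pfkl rose while the leading gene, Pfkp, did not pass the test. Pfkl stood at 89.7 and 68.2 CPM in H2O2, against 70.2, 47.9 and 51.3 CPM in control libraries. It rose 1.33-fold (log2 0.41 ± 0.074, adjusted p = 0.0259), by 0.35 in set A and 0.46 in set B, with overlap only between the H2O2 library of set B and the control library of set A. Pfkp stood at 289.9 and 549 CPM in H2O2, against 311, 645 and 642 CPM in control libraries (log2 -0.17 ± 0.069, adjusted p = 0.157). Here the sets lay further apart than the treatment groups. Per kilobase, Pfkl made up 24.9% and 11.9% of the subunit level in H2O2 replicates 1 and 2, against 19.5% in control replicate 1 and 7.48% and 7.99% in control replicates 2 and 3. Pfkm was scarce, between 6.97 and 9.94 CPM over all libraries, at log2 -0.0082 ± 0.131.

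The PFKFB enzymes make and remove fructose 2,6-bisphosphate, the strongest activator of phosphofructokinase 1, and none of the 3 passed the test. Pfkfb2 stood at 26.5 and 30.8 CPM in H2O2, against 22.3, 22.7 and 20.8 CPM in control libraries. Both H2O2 libraries lay above every control library, with log2 0.39 ± 0.104 and an adjusted p of 0.0646. Pfkfb4, the most abundant per kilobase, stood at 109 and 60.0 CPM in H2O2, against 88.4, 54.3 and 55.8 CPM in control libraries (log2 0.21 ± 0.076, adjusted p = 0.135). Pfkfb3, an inducible isoform with strong kinase activity, had a log2 value below 0, with 63.8 and 45.5 CPM in H2O2, against 80.9, 47.1 and 50.0 CPM in control libraries (-0.21 ± 0.086, adjusted p = 0.178). Its share of the 3 per kilobase was 26.9% and 28.9% in H2O2, against 36.5%, 32.9% and 34.3% in control libraries.

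**Figure D2:**
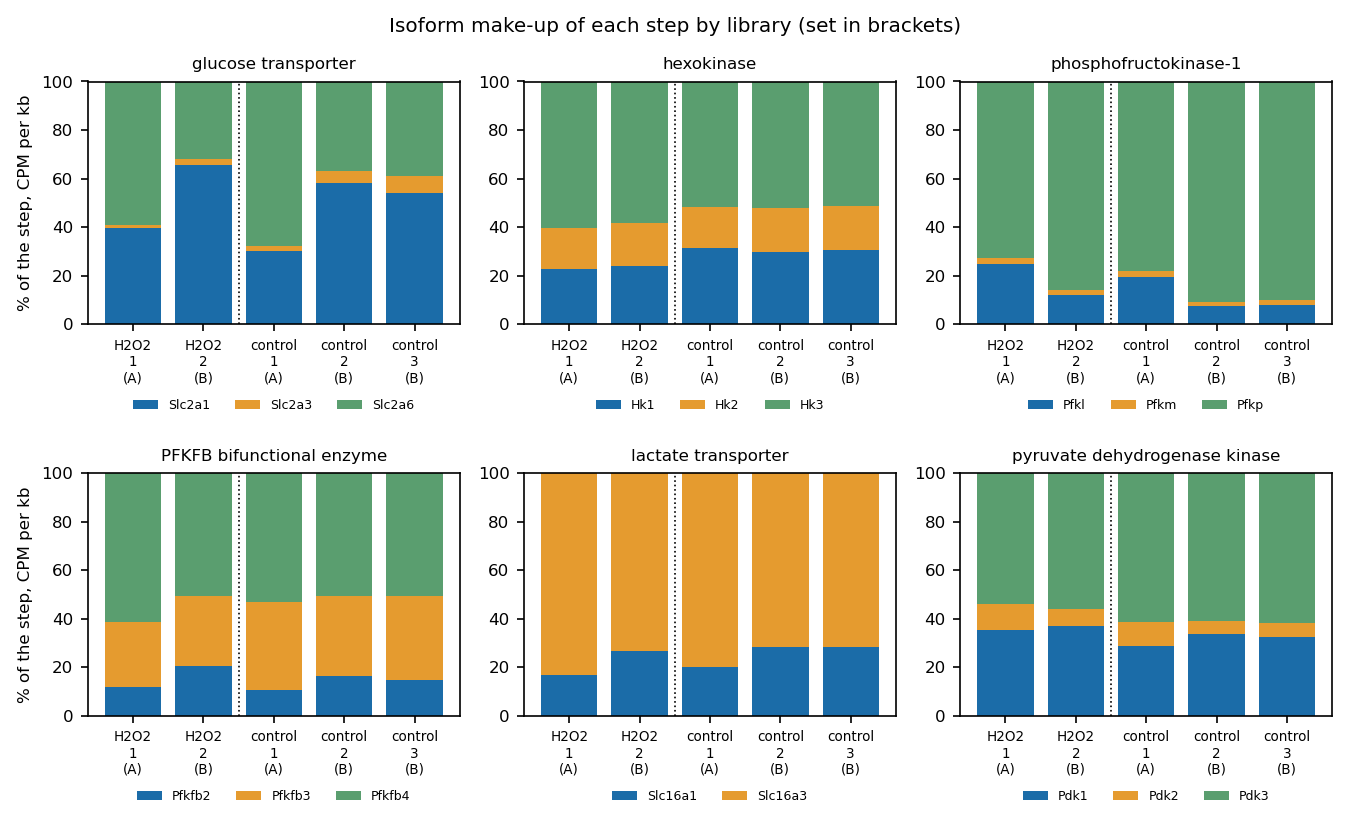
Share of each isoform in the level of its step, in percent of summed CPM per kilobase of principal transcript, one bar per library with H2O2 left of the dotted line and the set in brackets. Hk3 takes 58.2% to 60.5% of the hexokinase bar in H2O2 and 51.1% to 52.0% in control libraries, while the transporter and phosphofructokinase bars differ more between sets than between groups.

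In the lower pathway, which runs from aldolase to pyruvate kinase and recovers ATP, 4 of 11 genes rose (36.4%, beside 3.93% of all genes tested) and none fell (beside 4.61%). These were Tpi1, Pgam1, Eno1 and Pkm, each at a different step. Outside the lower pathway Slc2a1, Hk3 and Pfkl rose, and the parts of the pathway were not tested against each other. Tpi1, the triosephosphate isomerase gene, stood at 229 and 288 CPM in H2O2, against 192, 228 and 235 CPM in control libraries. It rose 1.22-fold (log2 0.29 ± 0.066, adjusted p = 0.0451), with groups that overlapped only through control replicate 3. Tpi1 was not called by DESeq2 (adjusted p = 0.0611), nor by edgeR with RLE size factors (0.0511), with library totals alone (0.0805) or without control replicate 2 (0.147). Pgam1, the phosphoglycerate mutase gene, stood at 649.6 and 718 CPM in H2O2, against 473, 611 and 571 CPM in control libraries. Its H2O2 libraries lay above every control library, a 1.28-fold rise (log2 0.36 ± 0.076, adjusted p = 0.038). The rise was not called without any 1 of the 5 libraries, at adjusted p between 0.0527 and 0.152 by edgeR, nor with scaling by library totals alone (0.0584).

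Eno1 encodes the widespread enolase, which forms phosphoenolpyruvate. It stood at 855 and 1065 CPM in H2O2, against 655, 778 and 818 CPM in control libraries. All H2O2 values were higher than all control values, with a 1.32-fold rise (log2 0.40 ± 0.066, adjusted p = 0.024) that was alike in set A (0.39) and set B (0.42). Eno1 held between 92.5% and 97.3% of the enolase level per kilobase in every library. Eno3, the muscle enolase, did not pass (31.9 and 22.3 CPM in H2O2, 38.5, 28.0 and 27.4 CPM in control; log2 -0.29 ± 0.084, adjusted p = 0.0772). Eno2, the neuronal enolase, was scarce and parted the sets, with 4.49 and 1.49 CPM in H2O2 replicates 1 and 2, against 4.53, 1.33 and 1.77 CPM in control libraries (log2 -0.03 ± 0.224).

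Pkm, the pyruvate kinase gene of most tissues, had the lowest adjusted p of the 33. It stood at 1239 and 1238 CPM in H2O2, against 922, 852 and 885 CPM in control libraries. The H2O2 values nearly coincided and lay well above all controls, also across the sets. The rise was 1.39-fold (log2 0.47 ± 0.067, adjusted p = 0.0184 by edgeR), by 0.43 in set A and 0.51 in set B. Counts per gene do not part the splice forms of Pkm.

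The other genes of the lower pathway did not pass the test. Gapdh, glyceraldehyde phosphate dehydrogenase and the most abundant of the 33, stood at 2373 and 2826 CPM in H2O2, against 2133, 2646 and 2628 CPM in control libraries (log2 0.12 ± 0.066, adjusted p = 0.28). Aldoa, the main aldolase, stood at 1114 and 1217 CPM in H2O2, against 952, 1089 and 1020.1 CPM in control libraries (log2 0.22 ± 0.068, adjusted p = 0.0993). Its H2O2 values lay above all control values, although by a small step. Pgk1, phosphoglycerate kinase, stood at 653 and 715 CPM in H2O2, against 548, 666 and 667 CPM in control libraries (log2 0.17 ± 0.070, adjusted p = 0.178). Aldoc and Bpgm were scarcer, at log2 0.13 ± 0.121 and 0.11 ± 0.210, and changed sign between the sets.

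Lactate handling gave no call. Lactate dehydrogenase turns pyruvate into lactate, and Ldha, its main subunit gene, stood at 635 and 805 CPM in H2O2, against 563, 672 and 710.4 CPM in control libraries (log2 0.20 ± 0.067, adjusted p = 0.112). Ldhb was scarce, at 6.27 and 4.47 CPM in H2O2, against 5.35, 3.08 and 2.01 CPM in control libraries. Its log2 value of 0.53 ± 0.238 is the highest of the 33 but carries a wide error (adjusted p = 0.205). Slc16a3 encodes the lactate exporter MCT4 and stood at 144 and 103 CPM in H2O2, against 113, 91.0 and 89.1 CPM in control libraries. Each H2O2 library was above the controls of its own set, as also for Ldha, Ldhb and Slc16a1. The log2 value of Slc16a3 was 0.26 ± 0.072, with an adjusted p of 0.0724 by edgeR. Slc16a1, which encodes MCT1, stood at 29.4 and 38.6 CPM in H2O2, against 29.2, 36.8 and 35.7 CPM in control libraries (log2 0.057 ± 0.080, adjusted p = 0.688). Slc16a3 made up 83.3% and 73.1% of the transporter level per kilobase in H2O2, against 79.9%, 71.6% and 71.8% in control libraries.

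Pyruvate entry into mitochondria gave no call either. Pdk3, the most abundant pyruvate dehydrogenase kinase gene per kilobase, stood at 27.7 and 31.4 CPM in H2O2, against 32.1, 35.3 and 43.8 CPM in control libraries. Both H2O2 libraries lay below every control library (log2 -0.28 ± 0.115, adjusted p = 0.167). Its share of the 3 kinases was 54.1% and 56.2% in H2O2, against 61.4%, 60.8% and 61.8% in control libraries. Pdk1, a target of hypoxia-inducible factor, stood at 44.2 and 50.7 CPM in H2O2, against 37.0, 48.0 and 56.6 CPM in control libraries (log2 0.083 ± 0.110, adjusted p = 0.666). Pdk2 was scarce, between 3.38 and 5.85 CPM over all libraries, at log2 0.10 ± 0.179. Pdha1 and Pdhb encode the subunits of the first enzyme of the complex. Pdha1 stood at 124 and 170.4 CPM in H2O2, against 127, 191 and 189 CPM in control libraries (log2 -0.10 ± 0.069, adjusted p = 0.382), and Pdhb stood at log2 0.027 ± 0.094.

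**Figure D3:**
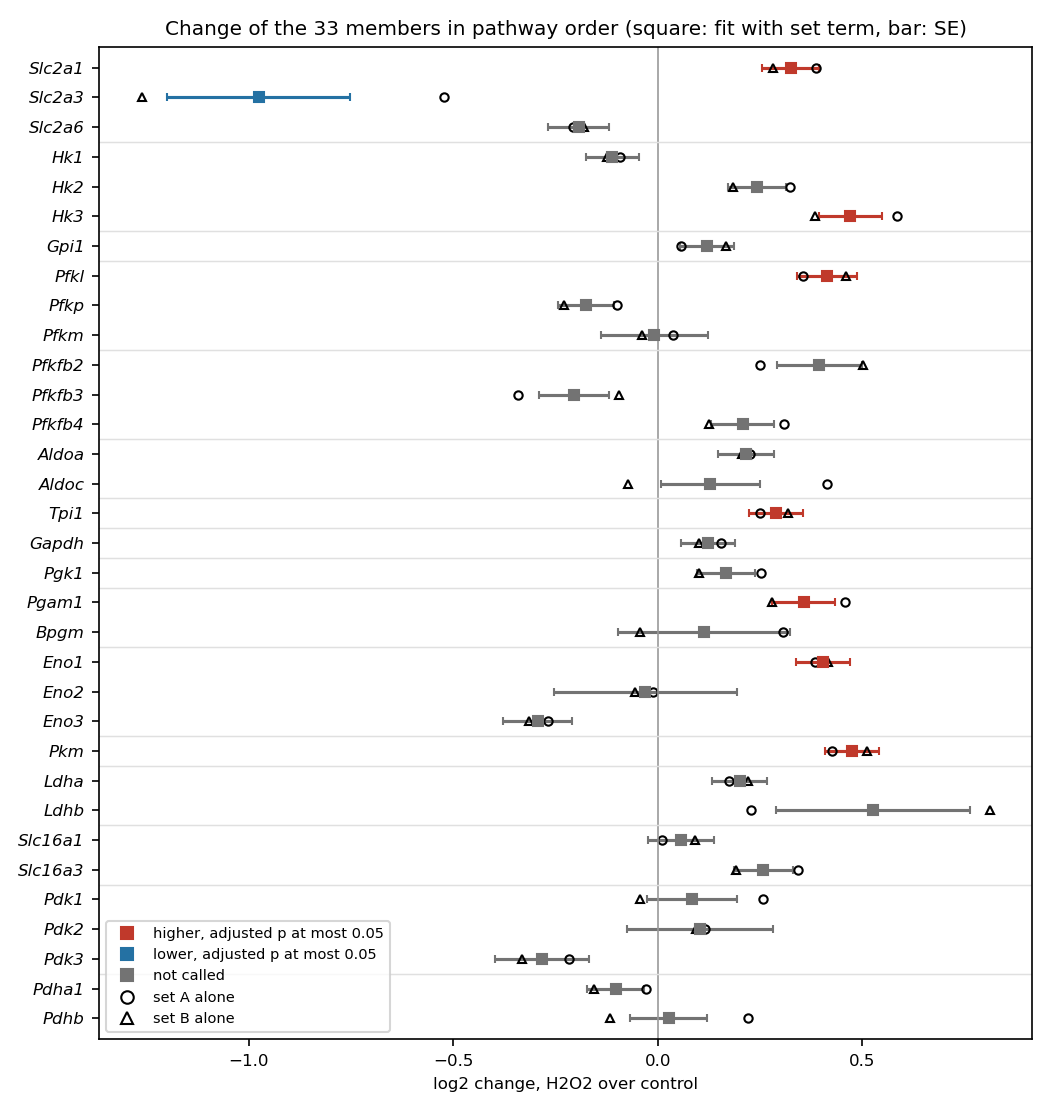
Log2 change, H2O2 over control, of the 33 genes in pathway order from glucose transport at the top: squares are the fit with the set term with SE bars, circles set A alone and triangles set B alone. The 7 genes that rose lie between 0.29 and 0.47, Slc2a3 lies at -0.98, and 5 genes have opposite signs in the sets.

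The direction was shared by the sets in most of the 33 genes. In 18 genes the H2O2 library lay above every control of its own set in both sets, and in 8 it lay below, against a background of 28.5% above and 28.0% below. The sign differed between sets in 5 genes (15.2%), Pfkm, Aldoc, Bpgm, Pdk1 and Pdhb, against 34.4% of all genes tested. An interaction of set and treatment was called for 0 of the 33 (0.0164% of all genes), the lowest adjusted p being 0.225 by edgeR with 1 residual degree of freedom.

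The sets themselves differed by more than the treatment did in most of these genes. In the same fit set A exceeded set B in 8 of the 33 and fell below it in 16. The background was 19.1% above and 16.9% below among all genes tested. The set difference was larger than the H2O2 change in 25 of the 33, and in 39 of the 57 tested related genes listed below. That share was not computed over all genes, so it is not shown to be particular to the 33. Pfkp was lower in set A by 0.99 on the log2 scale (SE 0.071, adjusted p = 1.54e-04) and Slc2a1 by 0.76. Slc2a6 was higher in set A by 0.92, Pfkfb4 by 0.76 and Pfkfb3 by 0.63. The leading glucose transporter per kilobase therefore differed by set. Slc2a6 held 58.9% of the transporter level in H2O2 replicate 1 and 67.7% in control replicate 1. Slc2a1 led in set B, with 65.5% in H2O2 replicate 2 and 58.1% and 54.2% in control replicates 2 and 3. Pkm did not pass this comparison (log2 0.05 ± 0.067, adjusted p = 0.594).

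**Figure D4:**
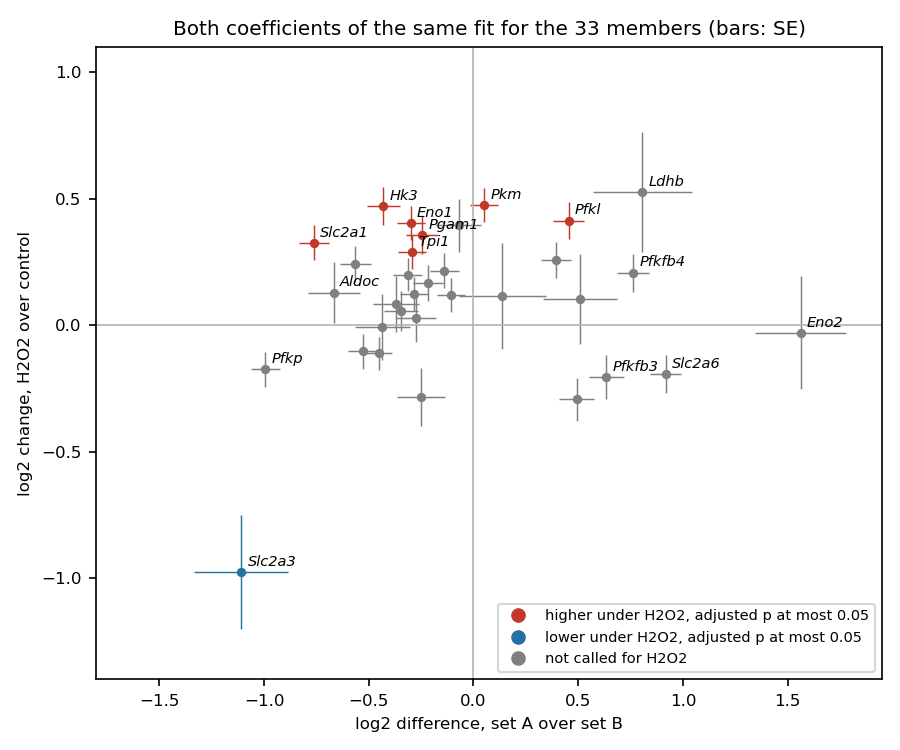
Log2 change, H2O2 over control, against the log2 difference of set A over set B for the 33 genes, both from the fit with the set term, with SE bars. Slc2a3 lies low on both axes at -0.98 and -1.11, and Pkm lies at 0.47 for H2O2 beside 0.05 for the set.

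Other genes of sugar metabolism were followed in a list of 74, of which 73 had a row and 57 passed the filter. Of these 57, 3 rose and 3 fell (5.26% each, beside the same background of 3.93% and 4.61%), and their median log2 change was 0.046. The 3 that rose were Pcx, Gbe1 and Bnip3l, and the 3 that fell were Pck2, Txnip and Vhl. Pck2, the mitochondrial phosphoenolpyruvate carboxykinase, stood at 25.9 and 28.5 CPM in H2O2, against 52.9, 61.5 and 59.8 CPM in control libraries. It fell 2.09-fold (log2 -1.06 ± 0.076, adjusted p = 0.0044), by nearly the same amount in each set (-1.03 and -1.09). Pcx, the pyruvate carboxylase that feeds oxaloacetate, stood at 22.8 and 14.2 CPM in H2O2, against 12.3, 10.9 and 8.41 CPM in control libraries, a 1.63-fold rise (log2 0.71 ± 0.154, adjusted p = 0.0402). Gbe1, the glycogen branching enzyme, stood at 40.3 and 39.3 CPM in H2O2, against 29.7, 19.8 and 20.5 CPM in control libraries, a 1.67-fold rise (log2 0.74 ± 0.127, adjusted p = 0.0252). All 3 kept the groups apart in every library.

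Txnip encodes a protein that restrains glucose uptake and binds thioredoxin. It stood at 312 and 692 CPM in H2O2, against 436, 901 and 829 CPM in control libraries, and fell 1.31-fold (log2 -0.39 ± 0.077, adjusted p = 0.0322) with overlap across the sets. Vhl encodes the ligase subunit that marks hypoxia-inducible factor for breakdown. It stood at 151 and 73.4 CPM in H2O2, against 210.2, 94.6 and 95.4 CPM in control libraries (log2 -0.42 ± 0.069, adjusted p = 0.024). Of 12 tested targets of hypoxia-inducible factor outside glycolysis, 1 rose (8.33%, beside the 3.93% of all genes tested) and none fell. That was Bnip3l, a mitophagy receptor, with 245 and 227 CPM in H2O2, against 199, 167 and 162 CPM in control libraries (log2 0.40 ± 0.071, adjusted p = 0.026 by edgeR). The log2 value was above 0 in 9 of the 12 targets and below 0 in 3, with a median of 0.18, beside 0.12 over the 33 genes. In 4 of the 12 (33.3%) both H2O2 libraries lay above every control library, against a background of 13.0%. Vegfa was the most abundant of these targets per kilobase of principal transcript (654 bases) but below Bnip3l with the length of all exons joined (4285 bases). Vegfa stood at log2 0.18 ± 0.124 (adjusted p = 0.392 by edgeR). By CPM alone Ero1a led, with a mean of 319 CPM against 109 CPM for Vegfa, and it had no joined length. Ero1a stood at log2 0.18 ± 0.069 (adjusted p = 0.14 by edgeR). Hif1a, named after its values were seen, stood at log2 0.072 ± 0.075 (adjusted p = 0.581).

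No call was made among the tested hexose transporters (3), other glycolytic enzymes (7), other lactate and pyruvate genes (8) or other pyruvate dehydrogenase complex genes (7). Their most abundant genes per kilobase of principal transcript did not pass the test: Slc2a9 stood at log2 -0.12 ± 0.116, Galm at -0.17 ± 0.086, Mpc1, a mitochondrial pyruvate carrier, at 0.19 ± 0.089 and Dld at 0.078 ± 0.082. Pygl, the leading gene of gluconeogenesis and glycogen handling on that scale, stood at 0.12 ± 0.068. With the length of all exons joined, Bsg exceeded Mpc1 and Ugp2 exceeded Pygl, so these orders are not fixed. Hkdc1 and Pklr were below the filter, with at most 0.0610 CPM in any library, and Eno1b, a near copy of Eno1, had 0 counts in all.

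Other cell types and the cell cycle moved beside these genes. The 8 cell cycle markers, all lower under H2O2, summed to 332 and 162 CPM in H2O2, against 1008, 292 and 537 CPM in control libraries, with none at 0. The 7 macrophage markers summed to 798 and 802 CPM in H2O2, against 748, 689 and 692 CPM in control libraries, with 1 of 6 tested higher, 2 lower and none at 0. Beside these counts, 3.93% of all genes tested were higher and 4.61% lower. The part of these markers in the results above was not tested.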

How the data were processed

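Transcript levels were measured by RNA sequencing in 6 samples labelled H2O2 or control. The authors deposited estimated counts, 1 value for each gene and library, which the file headers name read counts and which carry no scaling; among them between 8.38% and 9.03% per library were not whole. Per the submitters' processing notes HISAT, Bowtie2 and build GRCm38.p6 were used. No source used here names the counter, the annotation release, the strand setting or the filters, so overlapping and near-identical genes may share reads. Among the 33 genes, 6 had values that were not whole: Pfkp, Eno3 and Pdha1 in all libraries, Slc16a3 in 2, Gapdh and Eno1 in 1 each. Of partners on the opposite strand, Senp1 (44.8 CPM) exceeded Pfkm (8.56 CPM), and Yod1 (11.9 CPM) stood beside Pfkfb2 (24.6 CPM).

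Symbols came from RefSeq's GRCm38.p6 table, which matched 17520 rows (99.73%), and transcript lengths from GENCODE M21 of the same build (longest principal transcript). Counts were rounded and kept by edgeR's filterByExpr (minimum count 10, total 15), which left 12209 genes, and scaled by TMM. CPM are per TMM-adjusted library, except the sums of Y-linked genes, which are per library total. Set A held libraries with at least 100 Y-linked counts. Changes were tested by the quasi-likelihood method of edgeR with set and treatment terms (2 residual degrees of freedom), adjusted by Benjamini-Hochberg over all genes, with SE as the absolute log2 change over the square root of F. Distinct libraries all differed by more than counting noise, with a chi-square over its degrees of freedom of 5.07 for control replicates 2 and 3 and at least 27.2 for other pairs. Alternatives were the fit without the set term, a replicate block, DESeq2, limma-voom, other scalings, no filter, and each library left out. The members, lists, set term and tests were chosen with earlier results of these data known, and the comparison of the sets was added after the data were seen. Genes were given in full where called, at a log2 change of at least 0.3 either way, or most abundant per kilobase in their step; related genes where called or most abundant in their list. The software was edgeR 4.0.16, DESeq2 1.42.0 and limma 3.58.1 under R 4.3.3.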

Additional observations from a re-analysis of the deposited data

How the results depend on the processing

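With the set term, 7 of the 33 genes were higher and 1 lower under H2O2, and 3 and 3 of the 57 related genes. DESeq2, limma-voom and RLE size factors kept every count within 1.5 times. Without the set term 0 and 0 of the 33 and 0 and 0 of the 57 were called. With the replicate block (1 residual degree of freedom) the counts were 3 higher, Hk3, Eno1 and Pkm, and 1 lower, Slc2a3, of the 33, and 1 higher, Gbe1, and 2 lower, Pck2 and Txnip, of the 57 (Pcx, Bnip3l and Vhl stood at adjusted p = 0.0653, 0.0776 and 0.0538 by edgeR), and each of these was also called under the set term. The replicate numbers join 2 pairs, and deviations from the group means correlated with r = 0.834 for replicate 1 and 0.751 for replicate 2, but H2O2 replicate 2 also went with control replicate 3 (0.711), so the numbers are no shown pairing. Scaling by library totals alone gave 4 higher and 2 lower of the 33 (the added 1 was Eno3). It shifted the median log2 change over all genes by -0.065. Without the filter on low counts 1 higher (Pkm) and 0 lower of the 33, and 0 higher and 1 lower (Pck2) of the 57 were called; the cause was not tested. Leaving out each library in turn gave between 0 and 7 higher and between 0 and 1 lower of the 33, and between 0 and 6 higher and between 0 and 5 lower of the 57. Without either library of set A, only set B bears on the treatment, Pgam1 is not called and Pfkfb2 is. No log2 change of the 8 called genes changed sign under any of these 12 alternatives. The scarcest genes had the widest errors, with an SE of 0.238 for Ldhb, 0.224 for Slc2a3 and Eno2 and 0.210 for Bpgm.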
